A study of Homo sapiens with 12 samples.

Results

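The response described here is that of HaCaT_ctrl keratinocytes to a mix of 3 inflammatory cytokines, read as the difference between HaCaT_ctrl+cyto and HaCaT_ctrl libraries. Its members are all genes whose level reached 1 CPM (a count scaled to the library total) in 3 or more of the 6 libraries, which were 13687 of the 57370 genes in the count table. HaCaT is an immortalized line of human epidermal keratinocytes. HaCaT_ctrl carries a doxycycline-inducible lentiviral vector with a scrambled shRNA, and stable clones of it were selected with puromycin. The 3 HaCaT_ctrl libraries are labelled as without stimulation. The 3 HaCaT_ctrl+cyto libraries came from cells that, after a first period in doxycycline, were kept for 72 h in fresh medium with doxycycline and cytokines. These were 100 ng/mL IL-17, 25 ng/mL TNFα and 20 ng/mL IFNγ. Both groups share the vector and the selection. The paper describes doxycycline for the line as a whole and does not describe the medium change or the times of the unstimulated cells separately. The series also holds 3 HaCaT_sh and 3 HaCaT_sh+cyto libraries of the line whose shRNA targets IQGAP3, treated in the same way, and these enter only where the responses of both lines were compared. Each group stands for 1 engineered line, and the labels call its libraries biological replicates without saying that they came from separate cultures, so the p-values measure only the spread between these libraries.

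In keratinocytes, IFNγ binds the IFNGR1/IFNGR2 receptor and activates the kinases JAK1 and JAK2, which act on transcription factors of the STAT family. TNFα acts through TNFRSF1A, and IL-17 through a receptor of IL17RA and IL17RC, and both lead to NF-kB. Such cytokines are abundant in psoriatic skin, where keratinocytes answer with chemokines, antimicrobial proteins and altered differentiation.

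The counts per library summed to between 13982913 and 16999594 in HaCaT_ctrl and to between 16096471 and 17308021 in HaCaT_ctrl+cyto. CPM values below are scaled to the library size after TMM scaling, with a factor that was between 1.073 and 1.078 in HaCaT_ctrl and between 0.91 and 0.955 in HaCaT_ctrl+cyto. Across genes, which do not count as replicates, Pearson's r of log2 CPM was between 0.997 and 0.998 for pairs of HaCaT_ctrl libraries and between 0.991 and 0.995 for pairs of HaCaT_ctrl+cyto libraries. HaCaT_ctrl+cyto replicates 1 and 3 were the least alike pair. Mitochondrially encoded genes took 5.86% to 6.47% of the counts in HaCaT_ctrl and 1.64%, 1.89% and 2.95% in HaCaT_ctrl+cyto replicates 1, 2 and 3. The 16 keratinocyte identity markers were all measured and summed to between 13543 and 13928 CPM without and between 14164 and 16573 CPM with cytokines, and none of them was under 10 reads. Of 13 macrophage and dendritic cell markers, 10 had fewer than 10 reads over the 6 libraries, 5 of them none (among them CD163 and TYROBP), and the list summed to between 0.862 and 1.23 CPM without and between 0.586 and 0.743 CPM with cytokines.

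Cytokines changed 35.9% of the tested genes. A gene is said to rise or fall, or to be up- or downregulated, when its adjusted p in edgeR's quasi-likelihood test was below 0.01 and its change at least 2-fold, and any other gene was not called. By this rule 2017 genes (14.7% of those tested) rose and 2890 (21.1%) fell. At least 4-fold changes made up 645 of the increases and 1286 of the decreases, and at least 16-fold changes 182 and 361. The median log2 fold change was 1.55 over the upregulated and -1.83 over the downregulated genes, against -0.03 over all tested genes. Values of the 3 HaCaT_ctrl and the 3 HaCaT_ctrl+cyto libraries did not overlap for 2016 of the upregulated and all 2890 downregulated genes. The rule selects genes with such separation, so these counts are no separate support for the calls. As a filter effect, 275 genes passed the minimum only through the cytokine libraries (272 of them rose) and 934 only through the unstimulated ones (852 of them fell), so the counts of members below describe the measured genes and are no test. Member counts of each list are to be read beside the 14.7% and 21.1% of all tested genes. Upregulated genes together held 10.1% to 10.4% of the reads in HaCaT_ctrl and 30.0% to 31.0% in HaCaT_ctrl+cyto. Downregulated genes went from 19.4% to 20.0% of the reads down to 4.45% to 5.39%. With library size alone in place of TMM, the median over all genes moved from -0.03 to -0.24 and the split became 1509 genes higher and 3493 lower. With upper quartile scaling it was 1556 and 3427. In bulk libraries fewer cells of a kind and less RNA per cell cannot be told apart.

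**Figure D1:**
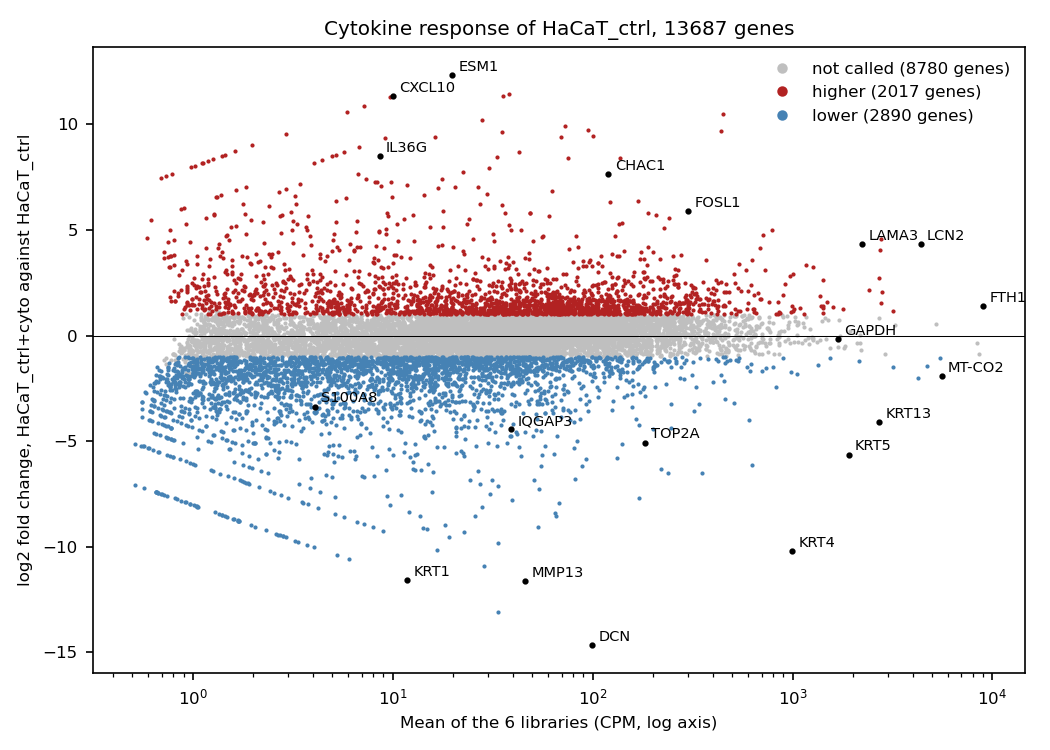
Log2 fold change of HaCaT_ctrl+cyto against HaCaT_ctrl (vertical axis) against the mean CPM of the 6 libraries (horizontal log axis) for 13687 genes, with the 2017 upregulated genes in red, the 2890 downregulated genes in blue, uncalled genes in grey and some named genes as black points. KRT13, KRT5 and KRT4 stand far below 0 at a high level, LCN2 and LAMA3 above it, and GAPDH lies near 0. Oblique lines of points at the lower left and upper left are genes with few or no reads in 1 group.

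The receptors were measured first. IFNGR2, the signalling chain of the IFNγ receptor, was at 39.3, 33.7 and 35.0 CPM in HaCaT_ctrl and 40.7, 35.0 and 36.7 CPM with cytokines, and the groups overlapped, with a sign that turned with library size alone (log2 fold change 0.06 and then -0.15) and without HaCaT_ctrl+cyto replicate 1. IFNGR1, the ligand-binding chain, was at 116, 116 and 119 CPM without and 113, 75.1 and 75.4 CPM with cytokines (log2 fold change -0.41 ± 0.14 SE, adjusted p = 0.0186). TNFRSF1A, the main TNFα receptor, went from 186, 189 and 177 to 101, 88.2 and 94.2 CPM, which at 1.95-fold lower stayed just under the 2-fold rule and passed it without HaCaT_ctrl+cyto replicate 1 (log2 fold change -1.01) and with library size alone (-1.18). None of these 3 genes was called. The other TNFα receptor of the list, TNFRSF1B, did not pass the filter and was not tested. It had 3, 5 and 6 reads without and 26, 15 and 14 reads with cytokines. Among IL-17 receptors, the shared chain IL17RA was at 56.1, 51.7 and 54.7 CPM without and 80.3, 70.6 and 70.0 CPM with cytokines and was not called (log2 fold change 0.44 ± 0.07). Its partner IL17RC fell from 17.6, 16.8 and 16.1 to 5.6, 5.6 and 4.63 CPM, 3.19-fold. IL17RE, which pairs with IL17RA to bind IL-17C, fell from 16.3, 16.99 and 15.9 to 0, 0.52 and 0.376 CPM (adjusted p = 1.21e-07). IL17RD, an inhibitor of growth factor signalling in the same family, rose from 0.398, 0.176 and 0.436 to 2.09, 1.24 and 1.25 CPM.

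Few JAK, STAT and IRF genes were called, and more NF-kB genes. Of 17 tested JAK, STAT and IRF genes 2 rose and none fell by edgeR, DESeq2 or limma-voom (6 were lower at an unadjusted p below 0.05), with a median log2 fold change of -0.06. The share that rose, 11.8%, was near the 14.7% of all tested genes. BATF2, an interferon-induced partner of JUN proteins, was nearly silent at 0.332, 0.294 and 0.164 CPM and reached 39.1, 29.5 and 31.6 CPM. IRF1 stayed below the 2-fold rule at 166, 185 and 157 CPM without and 321, 279 and 289 CPM with cytokines (log2 fold change 0.81 ± 0.08), although its groups did not overlap. STAT2 (log2 fold change 0.47) and IRF9 (0.40) were not called either. Among 26 NF-kB subunits and transducers 8 rose and 3 fell (median 0.47). The increases include the subunit RELB, at 14.5, 14.8 and 13.7 CPM without and 60.2, 61.5 and 52.8 CPM with cytokines, and the kinase RIPK2, at 13.3, 11.3 and 15.0 CPM without and 76.6, 62.0 and 78.4 CPM with cytokines. NFKBIZ, a nuclear cofactor of IL-17 target genes, rose from 30.5, 32.7 and 30.0 to 156, 89.1 and 84.9 CPM and was highest in replicate 1.

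A minority of the feedback inhibitors rose. Of 30 tested, 7 rose and 3 fell (median 0.47), and with library size alone 4 rose. TNFAIP3 (A20), a ubiquitin-editing brake on NF-kB, went from 10.1, 9.93 and 9.6 to 511, 442 and 464 CPM, 47.8-fold (log2 fold change 5.58 ± 0.09, adjusted p = 1.42e-10). SOCS1, the inhibitor of JAK kinases, went from 0.133, 0.353 and 0.546 to 15.6, 20.4 and 19.5 CPM, and TNIP1, a partner of A20, from 108, 107 and 102 to 418, 372 and 389 CPM. The related SOCS3 was at 10.7, 11.9 and 10.9 CPM without and 24.1, 16.3 and 12.02 CPM with cytokines and the NF-kB inhibitor NFKBIA at 71.2, 79.0 and 72.8 CPM without and 127, 79.9 and 84.9 CPM with cytokines, and neither was called (adjusted p = 0.0192 and 0.0373).

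Most tested chemokines rose. Of 12 tested chemokines (of 27 in the list), 8 rose and 3 fell, with a median log2 fold change of 2.24. Of these 12 genes, 6 reached 1 CPM in 1 group only, so their count and median draw on the filter. CXCL10, which attracts T cells through CXCR3 (GRCh37, chr4:76942271-76944650), had no read in HaCaT_ctrl and 19.1, 17.4 and 23.9 CPM with cytokines, at least 338-fold higher when 3 counts over the unstimulated group are taken as the floor. CXCL9, a ligand of the same receptor, also went from no read to 10.7, 14.0 and 18.4 CPM, at least 242-fold. The third ligand, CXCL11, went from 0.332, 0.0588 and 0.164 to 5.67, 4.55 and 5.88 CPM. Groups did not overlap for any of them. CXCL8, a neutrophil attractant, rose from 1.46, 1.18 and 2.46 to 153, 67.3 and 67.4 CPM, and CXCL1 from 3.72, 2.998 and 4.2 to 45.0, 14.1 and 16.3 CPM; both were highest in HaCaT_ctrl+cyto replicate 1, without which the log2 fold change of CXCL1 went from 2.78 to 2.06. CXCL16, a scavenger receptor and chemokine, was already at 142, 138 and 136 CPM and rose to 525, 392 and 441 CPM. The 3 that fell were the CC chemokines CCL2, CCL17 and CCL22, CCL2 from 4.25, 4.47 and 4.96 to 0.0675, 0.0651 and 0.125 CPM (231 and 4 reads in all). Several textbook cytokine targets stayed under the filter in these cells. CCL20 had 1, 0 and 2 reads in HaCaT_ctrl and 2, 0 and 1 with cytokines, CXCL2 had none in any library, and IL6 had 9, 9 and 13 reads against 11, 12 and 16. CXCL5, also untested, had 0, 0 and 1 reads against 75, 7 and 7, so that most of its reads came from replicate 1.

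Most tested interleukins and colony-stimulating factors also rose: 14 of 19 rose and 3 fell, with a median log2 fold change of 4.50. Of these 19 genes, of 32 in the list, 8 reached 1 CPM in 1 group only, with the same effect of the filter. CSF3, the granulocyte colony-stimulating factor, had no read without and 34.7, 12.8 and 10.95 CPM with cytokines, at least 328-fold higher, or at least 199.7-fold without replicate 1. CSF2, which acts on granulocytes and macrophages, went from 0.0663, 0.0588 and 0 to 6.01, 4.75 and 5.32 CPM. IL1A went from 0.464, 0.411 and 0.764 to 73.8, 47.4 and 55.0 CPM (104-fold) and IL1B from 1.53, 1.12 and 2.4 to 135, 67.7 and 84.9 CPM, and both encode alarm cytokines of the IL-1 receptor. Their soluble antagonist IL1RN was already at 145, 142 and 149.9 CPM and rose 3.07-fold to 457, 412 and 469.5 CPM. IL36G, an epidermal IL-1 family member, had 2 reads in HaCaT_ctrl and was at 35.2, 8.13 and 8.26 CPM with cytokines, the highest by far in replicate 1, and its log2 fold change of 8.49 ± 1.15 became 7.44 without that library. IL24 had no read and then 4.73, 1.43 and 2.25 CPM, and the IL-23 subunit IL23A went from 0.531, 0.235 and 0.273 to 15.2, 7.48 and 6.95 CPM. IL32, a TNF-inducing cytokine, rose from 1.26, 0.882 and 1.36 to 48.7, 38.7 and 49.6 CPM. The 3 that fell were IL7, IL15 and IL18, IL15 from 14.4, 17.8 and 17.1 to 1.55, 1.37 and 1.75 CPM. Across the 14 increases, HaCaT_ctrl+cyto replicate 1 held the highest value for 11, against 51.6% of all 2017 upregulated genes.

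**Figure D2:**
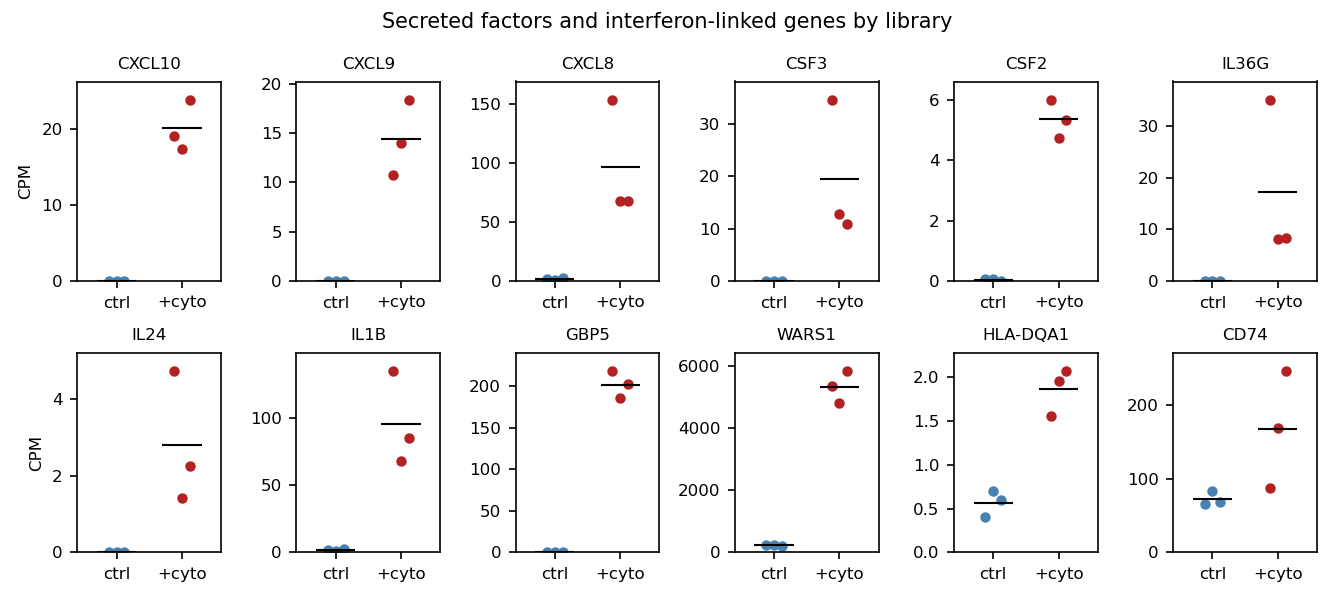
CPM (vertical axes, linear from 0) of 12 secreted and interferon-linked genes in the 3 HaCaT_ctrl (blue) and the 3 HaCaT_ctrl+cyto libraries (red, replicates 1 to 3 from left to right), with the group mean as a line. CXCL9, CXCL10, CSF3 and IL24 had no read without cytokines, replicate 1 stands above the others for CXCL8, CSF3, IL36G and IL24, and CD74 spreads from 86.8 to 245 CPM with them.

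Promoters of the responders with the largest fold or the largest gain in CPM were read from the RefSeq table (GRCh38.p14) as a view of the sequence in front of genes that moved together. Of these 22 upregulated genes 16 had a promoter there, and 5 of the 16 held, in the 250 bases before the start, an interferon-stimulated response element (ISRE, GAAA, 2 bases of any kind and GAAA), a gamma-activated site (GAS, TTCNNNGAA) or the kB motif bound by NF-kB, on either strand. Capitals mark these motifs in the first 5 sequences, which end at the base before the start site.
CXCL10 (chr4:76023498-76023747, minus strand): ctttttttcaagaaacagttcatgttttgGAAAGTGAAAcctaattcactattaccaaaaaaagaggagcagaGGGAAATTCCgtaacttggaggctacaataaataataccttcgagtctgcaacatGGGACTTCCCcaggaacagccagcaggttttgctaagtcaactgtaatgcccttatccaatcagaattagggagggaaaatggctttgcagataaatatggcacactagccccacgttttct
CXCL9 (chr4:76007510-76007759, minus strand): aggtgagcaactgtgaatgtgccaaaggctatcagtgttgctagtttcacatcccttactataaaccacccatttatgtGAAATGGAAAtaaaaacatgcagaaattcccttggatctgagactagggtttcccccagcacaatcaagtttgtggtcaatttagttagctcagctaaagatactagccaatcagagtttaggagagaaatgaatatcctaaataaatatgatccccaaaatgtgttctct
LCN2 (chr9:128149203-128149452, plus strand): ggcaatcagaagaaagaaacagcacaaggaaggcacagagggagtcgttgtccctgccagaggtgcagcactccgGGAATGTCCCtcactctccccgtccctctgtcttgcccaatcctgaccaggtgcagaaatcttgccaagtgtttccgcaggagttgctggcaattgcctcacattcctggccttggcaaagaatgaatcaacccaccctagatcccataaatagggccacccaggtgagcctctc
SPRR2F (chr1:153113517-153113766, minus strand): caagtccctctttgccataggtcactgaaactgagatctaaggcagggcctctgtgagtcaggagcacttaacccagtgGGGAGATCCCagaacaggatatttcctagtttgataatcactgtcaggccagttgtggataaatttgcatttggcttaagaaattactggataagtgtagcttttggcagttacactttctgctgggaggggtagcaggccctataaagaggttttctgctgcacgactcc
LAMB3 (chr1:209652426-209652675, minus strand): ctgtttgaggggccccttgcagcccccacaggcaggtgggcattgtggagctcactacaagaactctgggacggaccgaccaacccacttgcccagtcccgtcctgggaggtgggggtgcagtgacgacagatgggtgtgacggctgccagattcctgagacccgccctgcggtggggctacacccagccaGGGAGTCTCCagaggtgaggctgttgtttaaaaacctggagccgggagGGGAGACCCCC
In CXCL10 the ISRE begins 221 bases before the start and is followed by a pair of kB motifs that begin 177 and 122 bases before it. CXCL9 holds an ISRE that begins 171 bases before the start. LCN2 and SPRR2F hold 1 kB motif each, and LAMB3 holds one that begins 59 bases before the start and an overlapping pair next to the start. Over the 300-base windows of the table (250 bases before and 50 after the start), the ISRE was found in 2.81% of the tested genes with a promoter, 4.33% of the upregulated and 2.58% of the downregulated ones. The kB motif was found in 6.57%, 6.32% and 6.38% of the same sets. GAS was found in 6.22% of tested, 6.04% of upregulated and 6.72% of downregulated genes. The AP-1 motif (TGANTCA) was found in 4.72%, 8.24% and 5.11%. GAS and AP-1 read the same on both strands as written, and a match is a description of these letters only.

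IFNγ-linked genes split. Of 25 guanylate-binding proteins and other IFNγ-linked genes, 10 rose, 3 fell and 12 were not called (median 0.46). GBP5, a GTPase of inflammasome assembly, rose from 0.133, 0.235 and 0.436 to 218, 185 and 202 CPM, 708-fold (log2 fold change 9.47 ± 0.17, adjusted p = 2.53e-10). GBP1 went from 7.03, 7.82 and 7.09 to 94.5, 83.9 and 89.4 CPM. WARS1, the tryptophanyl-tRNA synthetase, went from 224, 226 and 221 to 5361, 4797 and 5826 CPM and was among the 10 upregulated genes that gained most CPM. By contrast GBP2, a close relative, fell from 72.9, 91.6 and 74.9 to 30.6, 22.7 and 26.5 CPM, and APOL1 fell from 59.5, 66.8 and 54.9 to 27.4, 30.8 and 31.4 CPM (log2 fold change -1.01, and not called without HaCaT_ctrl replicate 2 or HaCaT_ctrl+cyto replicate 1, at -0.94 and -0.96). GBP4 was at 73.8, 86.5 and 79.2 CPM without and 48.5, 34.5 and 36.9 CPM with cytokines and was not called at a log2 fold change of -0.999, and was called lower with library size alone (-1.21) and when HaCaT_ctrl replicate 1 (-1.05), HaCaT_ctrl replicate 3 (-1.01) or HaCaT_ctrl+cyto replicate 1 (-1.16) was left out. With library size alone 5 in place of 3 genes of the list fell. GBP genes are close paralogs, and their counts depend on how shared reads were assigned, which is not given in the sources used here.

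Antiviral genes of the type I interferon program rose in part. In their list 15 of 39 rose, 4 fell and 20 were not called (median 0.78). RSAD2, which encodes viperin, went from 16.3, 16.9 and 15.9 to 101, 82.8 and 70.9 CPM and MX1, an antiviral GTPase, from 4.25, 4.7 and 4.8 to 18.8, 14.0 and 13.9 CPM. The double-stranded RNA sensor IFIH1 went from 34.8, 37.1 and 35.1 to 120.3, 110.2 and 128 CPM, IFIT5 rose 3.05-fold and TRIM25 2.92-fold. ISG15 was not called at a log2 fold change of 0.98, from 14.0, 15.2 and 15.5 to 33.8, 29.4 and 25.1 CPM, and was called without HaCaT_ctrl replicate 3 (1.01) or HaCaT_ctrl+cyto replicate 3 (1.08). Promoters of 30 of the 39 genes were in the RefSeq table, and 19 of them (63.3%) held the ISRE, against the 2.81% of tested genes given above.

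Antigen presentation genes moved both ways. In the MHC class I list 6 of 21 genes rose and 4 fell (median 0.76). HLA-B rose from 764, 828 and 748 to 2067, 2148 and 2008 CPM, TAP1, a subunit of the peptide transporter, from 137, 140.0 and 135 to 504, 449 and 386 CPM, and NLRC5, the class I transactivator, from 29.2, 31.2 and 25.9 to 113, 100.1 and 87.9 CPM. The light chain B2M, at 1879.5, 2051 and 1895 CPM without and 3388, 3425 and 3595 CPM with cytokines, stayed under the 2-fold rule (log2 fold change 0.84 ± 0.08). TAPBPL, a tapasin relative that edits class I peptides, fell from 30.5, 32.2 and 30.3 to 6.82, 6.96 and 8.76 CPM. In the MHC class II list 2 of 11 genes rose and 3 fell. HLA-DRA was at 11.3, 14.3 and 10.8 CPM without and 8.44, 12.8 and 13.9 CPM with cytokines, and its transactivator CIITA at 7.43, 8.52 and 7.97 CPM without and 7.7, 7.09 and 7.51 CPM with cytokines, and for both the groups overlapped. The invariant chain CD74 rose from 65.6, 83.4 and 67.9 to 86.8, 169 and 245 CPM (log2 fold change 1.21 ± 0.29, adjusted p = 0.00324), a call lost when any 1 of 4 libraries was left out, with log2 fold changes of 1.14 and 1.16 without HaCaT_ctrl replicates 1 and 3 and of 1.20 and 0.82 without HaCaT_ctrl+cyto replicates 2 and 3. HLA-DQA1, at 0.398, 0.705 and 0.6 CPM without and 1.55, 1.95 and 2.07 CPM with cytokines, rose from a very low level, while HLA-DQB1 fell from 31.6, 32.8 and 32.1 to 11.8, 11.3 and 7.82 CPM, HLA-DMA from 8.76, 10.5 and 8.62 to 2.9, 3.19 and 4.69 CPM and HLA-DMB from 1.53, 1.94 and 1.31 to 0.203, 0.13 and 0.25 CPM. HLA genes share reads, and their single values are uncertain.

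Proteasome genes were mostly not called. None of the 7 immunoproteasome and PA28 genes rose by edgeR, DESeq2 or limma-voom (1 was higher at an unadjusted p below 0.05), and PSMB10 fell, from 33.7, 34.0 and 34.4 to 15.0, 12.5 and 6.38 CPM. PSMB9 was at 93.8, 95.5 and 88.0 CPM without and 76.5, 86.3 and 69.5 CPM with cytokines, PSMB8 at 107, 100.5 and 101 CPM without and 139, 126 and 99.5 CPM with cytokines, and the PA28 subunit PSME2 at 148, 162 and 149 CPM without and 85.9, 82.3 and 87.7 CPM with cytokines (log2 fold change -0.84). With library size alone 3 of the 7 fell. Among 30 constitutive subunits none was called by these 3 tools (22 were higher and 4 lower at an unadjusted p below 0.05), and their median log2 fold change was 0.41, with PSMB7 at 176, 162 and 176 CPM without and 317, 326 and 315 CPM with cytokines.

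Other immune ligands moved both ways. Of 16 T-cell ligands and adhesion molecules 5 rose and 6 fell (median -0.28). ICAM1, which binds leukocyte integrins, went from 9.22, 7.94 and 9.27 to 195, 137 and 148 CPM, 18.1-fold. CD274 (PD-L1) went from 1.33, 1.12 and 1.42 to 19.04, 13.5 and 11.7 CPM and PVR, a ligand of TIGIT and CD226, from 25.4, 26.6 and 26.0 to 352, 293 and 310.1 CPM. VTCN1 (B7-H4) fell from 71.3, 87.0 and 70.3 to 4.12, 4.29 and 4.07 CPM and LGALS9 from 30.2, 31.2 and 28.4 to 2.23, 1.69 and 2.13 CPM. In the TNF family 6 of 21 rose and 7 fell (median -0.26). TNFSF10 (TRAIL), a death ligand, fell 79.7-fold from 419, 491 and 401 to 5.81, 3.97 and 6.63 CPM, while its receptor TNFRSF10B rose from 49.8, 52.1 and 50.1 to 181, 167 and 148 CPM and the TWEAK receptor TNFRSF12A from 60.9, 50.3 and 59.6 to 367, 384 and 272 CPM. NGFR fell from 16.5, 15.2 and 16.4 to 0, 0.325 and 0.125 CPM. Caspases, gasdermins and death regulators were 6 higher and 6 lower of 33 (median 0.21), with CASP8 up 2.32-fold, BCL2L1 up 2.31-fold, PMAIP1 (NOXA) up 5.31-fold and the inflammasome adaptor PYCARD down 5.3-fold. CASP8 and BCL2L1 fell just under the 2-fold rule with library size alone. In this list 18.2% rose and 18.2% fell, shares near the 14.7% and 21.1% of all tested genes.

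Some of the 12 largest increases among protein-coding genes lie outside these lists. IL1RL1, the receptor of IL-33, went from 0.265, 0.823 and 0.709 to 771, 902 and 1022 CPM (1445-fold, log2 fold change 10.50 ± 0.21, adjusted p = 2.63e-10). ESM1 (endocan, GRCh37, chr5:54273695-54318499), a secreted proteoglycan, had no read without and 34.6, 44.1 and 40.4 CPM with cytokines, at least 667-fold higher. KLHDC7B rose from 1.53, 0.764 and 0.927 to 895, 858 and 883 CPM, and the noncoding KLHDC7B-DT beside it from 0.0663, 0.118 and 0.0546 to 12.02, 13.9 and 18.2 CPM. Also among the 12 were IGFN1 (1 read in HaCaT_ctrl against 98.8, 84.0 and 47.2 CPM), ZP4 (no read against 6.14, 11.3 and 18.0 CPM), HEPHL1 (2 reads against 91.7, 38.5 and 37.9 CPM) and PRR9, which went from 0.199, 0.118 and 0.109 to 172, 120.1 and 142 CPM, besides CSF3, CXCL9, CXCL10, SPRR2E and SPRR2F. HEPHL1 is a relative of the copper-dependent ferroxidases, and its value in replicate 1 was more than 2 times that of either other cytokine library.

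Antimicrobial and IL-17-linked genes also split. Of 22 tested, 11 rose and 8 fell (median 0.35), and 7 of the 22 reached 1 CPM in 1 group only. LCN2 (lipocalin 2), which binds bacterial siderophores, rose from 404, 438 and 397 to 7494, 7128 and 10429 CPM, 20.2-fold (log2 fold change 4.34 ± 0.16, adjusted p = 6.25e-09). RNASE7, a skin antimicrobial ribonuclease, went from 4.51, 4.58 and 3.71 to 122, 90.4 and 109 CPM and the protease inhibitor SERPINB3 from 16.7, 16.8 and 14.7 to 249, 196 and 257 CPM. SAA1 rose from 52.7, 51.0 and 49.9 to 269.5, 187 and 174 CPM and PI3 (elafin) from 13.5, 15.0 and 14.0 to 278, 93.8 and 124 CPM, both highest in replicate 1 (log2 fold change of PI3 3.54, and 2.94 without that library). A group of 3 S100 genes of the epidermal differentiation complex fell, while S100A2 of the same complex was not called. S100A7 (psoriasin) fell from 40.1, 45.1 and 36.1 to 0.945, 0.39 and 1.19 CPM, S100A8 from 9.22, 6.58 and 6.55 to 1.15, 0.325 and 0.688 CPM and S100A9 from 46.4, 43.0 and 44.2 to 2.7, 0.911 and 0.876 CPM (log2 fold change -4.91, and -5.63 without HaCaT_ctrl+cyto replicate 1), with no overlap between groups. BPIFB1, a secreted protein of the airway and mouth, fell from 77.4, 85.6 and 71.96 to 0.338, 0.325 and 0.376 CPM. DEFB4A had no read in HaCaT_ctrl and 3, 0 and 0 reads with cytokines and was not tested. SERPINB3 and SERPINB4, and SAA1 and SAA2, are near-identical pairs whose reads may have been shared.

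Complement genes were 5 higher and 5 lower of 15 (median -0.09). The proteases of the classical pathway rose, C1S from 7.3, 7.41 and 5.67 to 376, 383 and 359.8 CPM (55.1-fold) and C1R from 9.16, 10.1 and 10.5 to 83.1, 68.1 and 72.4 CPM, as did CD55, which protects cells from complement, from 22.4, 19.6 and 22.3 to 352, 284 and 351 CPM. In tryptophan and NAD metabolism 4 of 11 rose and 2 fell (median -0.12). IDO1, which opens the kynurenine pathway, went from 31.2, 40.7 and 30.6 to 216, 166 and 187 CPM, KYNU, a later enzyme of that pathway, from 0.862, 1.18 and 1.47 to 7.83, 7.94 and 6.63 CPM and NAMPT, of the NAD salvage pathway, from 201, 214 and 207 to 929, 887 and 883 CPM.

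Keratinocyte structural genes changed at very high levels. KRT5, the basal type II keratin (GRCh37, chr12:52908359-52914314), fell from 3785, 3768 and 3682 to 71.0, 76.9 and 78.2 CPM, 49.7-fold (log2 fold change -5.63 ± 0.09, adjusted p = 1.42e-10). Its partner KRT14 fell only 2.63-fold, from 2014, 1925 and 1897 to 779, 724 and 713 CPM. KRT13 and KRT4, the keratin pair of the mucosal suprabasal layers, both fell, KRT13 from 5109.8, 5360.0 and 4882 to 349.7, 279 and 259.8 CPM and KRT4 from 2012, 2002 and 1960.2 to 1.42, 1.63 and 2.003 CPM. KRT13, KRT5 and KRT4 were the 3 downregulated nuclear genes that lost most CPM. Laminin chains of the basement membrane, to which basal cells are anchored, rose. LAMA3 went from 216, 213 and 209 to 5307, 3619 and 3848 CPM and LAMB3 from 1087, 1102 and 1016 to 5172, 4566 and 3810.3 CPM. Among 20 basal keratinocyte genes 6 rose and 5 fell (median 0.48), and the keratinocyte identity list, which holds KRT5, KRT14 and LAMB3 too, counted 4 higher and 2 lower of 16 (median 0.23).

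Suprabasal differentiation genes parted by family. Of 30 tested, 12 rose and 10 fell (median 0.61), and 9 of the 30 reached 1 CPM in 1 group only. KRT1, the first keratin of differentiating epidermis, fell from 24.6, 23.0 and 23.1 CPM to no read in any cytokine library, at least 363-fold lower, and its partner KRT10 from 146, 141 and 134 to 30.5, 33.3 and 26.2 CPM. IVL (involucrin), a scaffold of the cornified envelope, fell from 496, 488 and 428 to 6.35, 4.03 and 5.07 CPM (91.4-fold). The small proline-rich SPRR2 genes of the same envelope rose. SPRR2D went from 0.0663, 0.294 and 0.218 to 99.7, 65.4 and 91.9 CPM, SPRR2A from 3.32, 2.88 and 2.73 to 371, 146 and 206 CPM, SPRR2E from 0.133, 0.176 and 0.327 to 269, 129.6 and 172 CPM, and SPRR2F had 1 read in HaCaT_ctrl and 104, 49.4 and 60.6 CPM with cytokines. Their relative SPRR3 fell from 15.9, 15.0 and 14.7 to 2.03, 1.04 and 1.88 CPM. PRDM1 (BLIMP1), a factor of terminal differentiation, rose from 1.06, 1.59 and 0.6 to 142, 105 and 125 CPM, and FLG (filaggrin) from 2.12, 2.29 and 2.62 to 3.51, 5.34 and 6.38 CPM, a call lost without HaCaT_ctrl+cyto replicate 3 and with library size alone (log2 fold changes 0.91 and 0.90). SPRR2 genes are near-identical copies, and how reads were divided between them is not known.

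Of the 4 tested wound keratins 2 rose and none fell by edgeR, DESeq2 or limma-voom (1 was lower at an unadjusted p below 0.05). KRT6A went from 548, 524 and 540.0 to 1199, 1170.1 and 1170.0 CPM (log2 fold change 1.13, and 0.92 and not called with library size alone), and KRT6B, a near-identical copy, had 2 reads against 104. KRT16, at 7.36, 6.88 and 6.27 CPM without and 6.14, 3.32 and 3.76 CPM with cytokines, and KRT17, at 117, 96.0 and 105 CPM without and 155, 124 and 74.8 CPM with cytokines, were not called, and the sign of KRT17 turned with library size alone (log2 fold change 0.15 and then -0.063) and without HaCaT_ctrl+cyto replicate 1 (-0.095). Simple epithelial keratins counted 2 higher and 1 lower of 7: KRT18 rose from 140.0, 136 and 142 to 678, 650.2 and 665 CPM, KRT23 from 6.77, 6.82 and 5.13 to 11.4, 20.2 and 29.0 CPM, and KRT20 fell from 5.31, 5.76 and 4.69 to 0.0675, 0.325 and 0.0626 CPM. Kallikreins, the proteases of skin shedding, and their inhibitors were 6 higher and 4 lower of 14, with KLK10 up 7.55-fold, KLK5 up 5.36-fold, PRSS8 up 3.43-fold and KLK11 down 7.05-fold. Junction genes were 8 higher and 4 lower of 28 (median 0.37). OCLN (occludin) went from 44.1, 43.4 and 42.4 to 242, 191 and 186 CPM, while CLDN8 fell from 53.8, 62.8 and 55.4 CPM to 1 read in all, TJP3 from 86.0, 88.5 and 82.1 to 11.3, 9.11 and 9.76 CPM and the desmosomal cadherin DSG4 from 89.8, 89.9 and 82.7 to 19.2, 16.1 and 18.2 CPM.

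**Figure D3:**
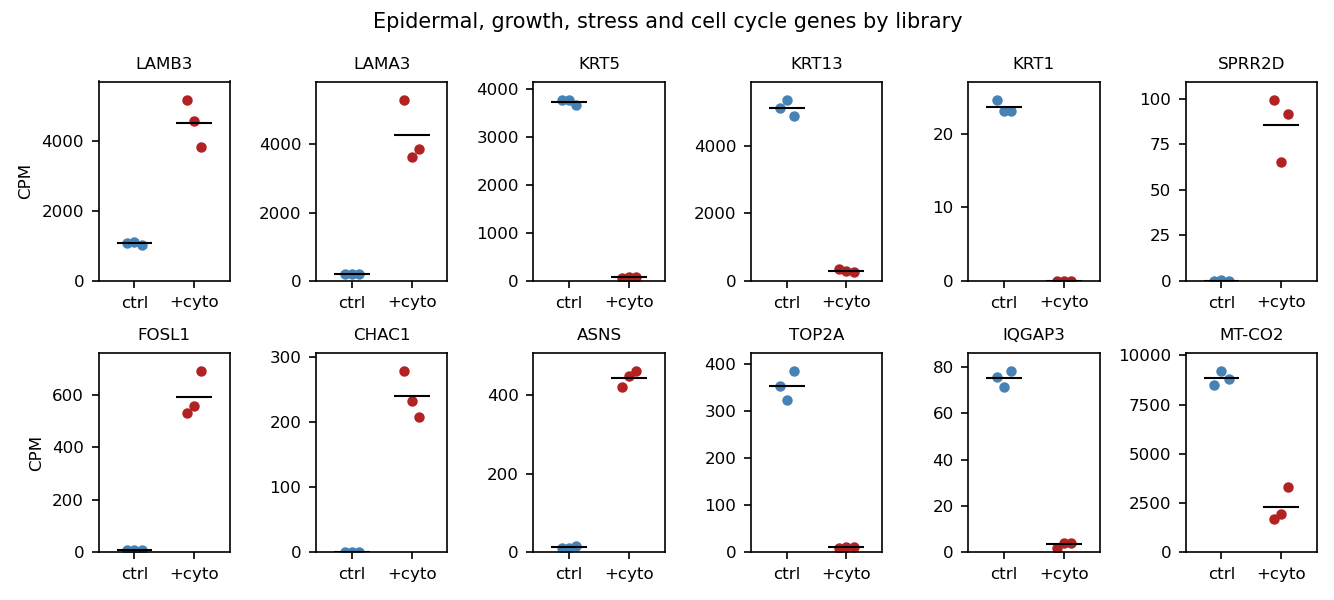
CPM (vertical axes, linear from 0) of 12 epidermal, growth, stress, cell cycle and mitochondrial genes in the 3 HaCaT_ctrl (blue) and the 3 HaCaT_ctrl+cyto libraries (red), with the group mean as a line. The groups do not overlap in any panel: LAMB3, LAMA3, SPRR2D, FOSL1, CHAC1 and ASNS are high with cytokines, and KRT5, KRT13, KRT1, TOP2A, IQGAP3 and MT-CO2 are high without.

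Matrix and adhesion genes also moved both ways. Integrins were 5 higher and 4 lower of 15: the fibronectin receptor chain ITGA5 rose 15.3-fold from 6.37, 5.17 and 6.27 to 93.1, 86.1 and 92.7 CPM, ITGA2 4.36-fold and ITGB1 2.41-fold, and ITGB6 fell 5.39-fold. Of 16 collagens 3 rose and 8 fell (median -1.05), with COL12A1 up 2.63-fold and COL4A5 down 8.89-fold, COL4A6 18.2-fold and COL5A1 12.7-fold. Metalloproteinases and plasminogen genes counted 8 higher and 7 lower of 26 (median 0.48). MMP9 (gelatinase B) had 2 reads without and 3.38, 3.38 and 3.82 CPM with cytokines, MMP1 went from 14.4, 15.0 and 15.1 to 292, 156 and 167 CPM and SERPINB2 from 99.0, 92.2 and 102 to 1525, 905 and 1025 CPM. MMP13, a collagenase, fell from 92.2, 97.2 and 86.6 CPM to 1 read in all, MMP7 from 43.0, 47.1 and 39.1 to 1.42, 0.716 and 0.751 CPM, MMP28 from 188, 175 and 173 to 30.6, 37.5 and 31.6 CPM and the plasminogen activator PLAT from 122, 134 and 122 to 3.98, 1.82 and 1.94 CPM.

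The largest decrease in log2 fold change was that of DCN (decorin, a small proteoglycan; GRCh37, chr12:91534261-91576994), from 192, 227 and 181 CPM to no read among the cytokine libraries, at least 3074-fold lower. DCN belongs to the fibroblast list, of which 3 of 10 genes passed the filter and all 3 fell: COL1A1 from 16.9, 15.7 and 15.5 to 3.85, 2.6 and 1.94 CPM and LUM from 4.98, 5.05 and 5.29 CPM to 1 read. The defining fibroblast genes COL1A2 and DPT had no read in any of the 6 libraries, and PDGFRA, PDGFRB, THY1 and FAP had 3, 4, 8 and 3 in all. The list summed to between 203 and 248 CPM without and between 2.38 and 3.85 CPM with cytokines, the former nearly all DCN. Endothelial markers VWF (from 6.1, 5.11 and 5.78 to 0.0675, 0.0651 and 0.376 CPM) and CDH5 (from 13.1, 12.8 and 11.9 to 1.82, 0.325 and 0.313 CPM) also fell, where TIE1 and CLDN5 had no read and the list went from between 17.8 and 19.2 to between 0.39 and 1.96 CPM. The 8 T cell markers were at 12.9 to 13.7 and then 2.30 to 2.73 CPM, mostly IL7R (from 12.8, 11.9 and 12.8 to 1.62, 2.08 and 1.69 CPM), with CD3D and CD2 at no read. Among the untested members, LCK had more reads with cytokines (3, 4 and 2 without and 10, 9 and 12 with). CD3E had fewer (6, 11 and 6 without and none with). Melanocyte markers were at 16.8 to 20.4 and then 9.50 to 11.1 CPM, with PMEL at 3.72, 3.41 and 5.51 and then 0.878, 0.26 and 0.751 CPM and MLANA, TYR and SOX10 at no read. The part of other cell types in these results was not tested. METTL7A, a lipid droplet methyltransferase-like protein, fell from 63.3, 68.4 and 69.1 CPM to no read (at least 1030.0-fold), ALDH1A1, a retinaldehyde dehydrogenase, from 12.2, 12.9 and 11.2 CPM to no read and SCGB1A1, a secretoglobin best known from airway club cells, from 1205, 1286 and 1201 to 9.65, 18.1 and 25.1 CPM. DMBT1, CLEC3A and PHGR1 also had no read left, from means of 10.5, 7.49 and 6.74 CPM, while GPR15LG and ATP6V1B1 kept 1 and 3 reads in all from 33.3 and 67.1 CPM.

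Most genes of the AP-1 and ERK list rose. In the AP-1 and ERK feedback list 19 of 30 rose and 2 fell, with a median log2 fold change of 1.45. FOSL1 (FRA1), an AP-1 subunit, went from 10.5, 8.93 and 10.04 to 529, 557 and 689 CPM, 60.1-fold (log2 fold change 5.91 ± 0.13, adjusted p = 3.33e-10). PHLDA1 went from 76.2, 66.1 and 80.4 to 1287, 1319 and 1305 CPM, the ERK phosphatase DUSP4 9.88-fold up, ATF3 6.07-fold up and MYC from 104, 108 and 105 to 543, 474 and 565 CPM. FOS and SPRY1 fell. EGF family genes counted 7 higher and 4 lower of 15 (median 0.71), and 5 of the 15 reached 1 CPM in 1 group only. The EGFR ligands HBEGF, from 6.97, 6.05 and 6.98 to 327, 219.8 and 242 CPM, and TGFA, from 26.1, 27.4 and 28.3 to 388, 308 and 307 CPM, rose with the receptor EGFR itself, from 827, 798 and 801 to 1686, 2083 and 2282 CPM, and with its inhibitor ERRFI1, from 8.03, 7.82 and 9.38 to 171, 133 and 129 CPM. NRG2, a ligand of ERBB receptors, fell from 22.7, 22.7 and 21.8 to 0.608, 0.651 and 0.688 CPM.

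Wnt and Notch genes that were called mostly fell, and the TGFβ, activin and BMP list moved both ways. Of 30 Wnt genes 3 rose and 14 fell (median -0.64), among them WNT10A, from 239, 243 and 236 to 60.2, 56.3 and 53.01 CPM, the R-spondin receptors LGR4 (2.72-fold lower) and LGR6 (18.7-fold lower), and the receptor FZD6 (2.2-fold lower). Notch genes were 2 higher and 7 lower of 20 (median -0.25). NOTCH3 fell from 19.5, 20.7 and 20.8 to 1.55, 1.95 and 0.939 CPM, LFNG, which glycosylates Notch, from 31.5, 29.0 and 26.1 to 1.01, 1.63 and 0.688 CPM, the ligand JAG1 from 159, 167 and 159 to 67.2, 70.1 and 65.8 CPM and the target HES4 3.19-fold. In the TGFβ, activin and BMP list 6 of 28 rose (21.4%) and 7 fell (25.0%), shares near the 14.7% and 21.1% of all tested genes (median -0.38). All 4 ID genes, targets of BMP signalling, fell. ID3 went from 347, 349 and 320.0 to 1.42, 1.43 and 2.003 CPM, 207-fold, ID1 from 629.9, 637 and 589 to 70.9, 66.5 and 56.8 CPM and ID2 from 45.9, 46.2 and 47.0 to 4.86, 4.29 and 4.44 CPM. INHBA, the subunit of activin A, rose from 4.25, 3.23 and 4.75 to 419, 307 and 278 CPM, 81.9-fold.

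Genes of mitosis fell together. Of 54 G2/M, spindle and cytokinesis genes 50 fell and none rose by edgeR, DESeq2 or limma-voom (0 were higher at an unadjusted p below 0.05), with a median log2 fold change of -3.39. KIF20A, a cytokinesis kinesin, went from 108, 98.6 and 114 to 0.27, 0.781 and 1.001 CPM, 152-fold. TOP2A (topoisomerase II alpha) went from 355, 324 and 386 to 8.44, 11.1 and 12.1 CPM (33.6-fold, adjusted p = 7.03e-10), HMMR from 85.0, 79.2 and 87.0 to 1.42, 2.54 and 2.5 CPM and the cyclin CCNB1 from 129, 117 and 129 to 14.2, 15.5 and 15.1 CPM. MKI67, the Ki-67 antigen, went from 298, 250.3 and 312 to 20.7, 25.4 and 36.5 CPM and CDK1 from 99.8, 92.9 and 106 to 5.2, 7.09 and 6.76 CPM. HaCaT_ctrl+cyto replicate 3 held the highest of the 3 low values for 39 of the 50 genes. IQGAP3, the gene that the shRNA of the other line targets, is a member of this list and fell in the control line from 75.6, 71.2 and 78.2 to 1.96, 4.1 and 4.19 CPM, 21.8-fold (log2 fold change -4.44 ± 0.18, adjusted p = 1.14e-08). DNA replication genes fell less: 20 of 58 fell and 1, CCNE1, rose (median -0.75). TK1 (thymidine kinase) went from 115, 95.0 and 111 to 9.38, 14.0 and 11.9 CPM, LIG1 fell 5.89-fold and POLD1 3.92-fold, but PCNA, at 196, 184 and 211 CPM without and 95.4, 121 and 121 CPM with cytokines, was not called (though it was with library size alone, at a log2 fold change of -1.02), and the helicase subunit MCM2 was at 114, 103 and 122 CPM without and 155, 193 and 189.7 CPM with cytokines (log2 fold change 0.67). CDK inhibitors and p53 targets counted 10 higher and 13 lower of 32 (median -0.49). The CDK inhibitor CDKN1A (p21) rose from 69.0, 68.2 and 68.1 to 505, 369 and 354 CPM, GADD45A from 34.9, 33.9 and 36.7 to 299, 293 and 264 CPM and PLK3 9.88-fold, while SESN3 fell 14.4-fold. Other CDK inhibitors did not rise: CDKN2C, CDKN2A and CDKN2B fell, and CDKN1B and CDKN2D were not called.

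Mitotic promoters are known for the cell cycle homology region (CHR, TTTGAA) and for CCAAT boxes. The TOP2A promoter, that of the list's called gene with the smallest p whose printed window held a CHR, chosen after its values were seen, is shown with both in capitals on either strand.
TOP2A (chr17:40417897-40418146, minus strand): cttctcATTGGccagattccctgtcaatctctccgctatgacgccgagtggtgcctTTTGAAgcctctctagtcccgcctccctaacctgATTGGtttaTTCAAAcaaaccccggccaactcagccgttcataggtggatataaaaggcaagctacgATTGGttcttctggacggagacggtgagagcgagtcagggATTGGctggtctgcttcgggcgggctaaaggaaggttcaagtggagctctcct
CHR matches begin 194 and 151 bases before the start, and CCAAT matches 244, 160, 93 and 53 bases before it. Promoters of 45 of the 54 genes were in the table, of which 33 (73.3%) held a CHR and 35 (77.8%) a CCAAT box. Among all tested genes with a promoter these shares were 9.63% and 36.9%, and among the downregulated ones 13.1% and 38.0%.

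Genes of the unfolded protein response and of ATF4, the factor of amino acid and endoplasmic reticulum stress, rose together. Of these 37 genes 27 rose and none fell by edgeR, DESeq2 or limma-voom (1 was lower at an unadjusted p below 0.05), with a median log2 fold change of 1.88. CHAC1, which degrades glutathione, went from 1.33, 0.94 and 1.25 to 278, 231 and 208 CPM, 203-fold (log2 fold change 7.66 ± 0.17, adjusted p = 3.28e-10). ASNS (asparagine synthetase) went from 12.5, 10.3 and 16.4 to 422, 449.7 and 461 CPM, CTH (cystathionase) from 2.92, 3.06 and 2.4 to 60.5, 61.0 and 63.1 CPM and TRIB3 from 36.4, 31.1 and 33.4 to 299, 371 and 348 CPM. SESN2 rose 12.2-fold, DDIT3 (CHOP) from 12.3, 11.5 and 10.97 to 93.8, 113 and 113 CPM, PPP1R15A (GADD34), which reverses the block of translation, from 56.3, 57.4 and 54.8 to 490.3, 454 and 484 CPM and ATF4 itself from 199, 198 and 198 to 624, 568 and 649 CPM. The chaperone HSPA5 (BiP) went from 592, 573 and 589.9 to 2172, 2097 and 2197 CPM. The amino acid transporter SLC7A5, from 754, 659 and 718 to 4439, 4884 and 4874 CPM, was among the 10 upregulated genes that gained most CPM, with the chaperone HSPA8, from 904, 836 and 935 to 3738, 3622 and 4497 CPM.
CHAC1 (chr15:40953221-40953470, plus strand): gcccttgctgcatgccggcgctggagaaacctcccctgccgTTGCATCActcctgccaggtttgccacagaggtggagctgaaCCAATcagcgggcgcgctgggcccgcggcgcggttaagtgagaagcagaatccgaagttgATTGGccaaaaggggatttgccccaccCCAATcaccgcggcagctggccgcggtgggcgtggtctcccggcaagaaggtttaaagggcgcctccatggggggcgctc
The CHAC1 promoter, picked by the same rule for the ATF4 motif (TGATGNAA, capitals, with CCAAT), holds an ATF4 match that begins 209 bases before the start. This motif was found in 6 of 35 promoters of the list (17.1%), against 1.74% of tested and 3.16% of upregulated genes.

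Metabolic genes varied by pathway. NRF2 and glutathione genes were 11 higher and 6 lower of 32 (median 0.31), with HMOX1 from 1.26, 2.35 and 1.64 to 22.5, 23.4 and 22.5 CPM, TXNRD1 from 91.6, 86.6 and 101 to 977, 1090.0 and 897 CPM, AKR1C2 up 3.82-fold and ALDH3A1 down 23.1-fold. Among metal genes (8 higher and 4 lower of 21, median 0.32) the ferritin chains stood out. FTH1 rose from 5039, 5160.4 and 4752 to 10281, 12734 and 15852 CPM, 1 of the 10 upregulated genes that gained most CPM, and FTL from 234, 246 and 230.2 to 1499, 1784 and 2057 CPM. The zinc transporter SLC39A14 rose 3.26-fold and the metal-responsive factor MTF1 2.93-fold. Glycolysis and hypoxia genes were 6 higher and 2 lower of 31 (median 0.37), with VEGFA from 36.6, 38.4 and 34.7 to 539.8, 531 and 487 CPM, HK2 up 6.66-fold, NDRG1 up 5.2-fold and PFKFB3 down 2.61-fold. Cholesterol genes counted 2 higher and 4 lower of 27 (median -0.07): ACAT2 fell 6.15-fold and MVK 2.83-fold. In fatty acid and barrier lipid genes (7 higher, 6 lower of 32, median 0.14) ABHD5, a cofactor of triglyceride breakdown, rose 3.96-fold, while SPTLC3, a subunit of ceramide synthesis, fell from 30.7, 27.9 and 30.1 to 0.0675, 0.455 and 0.751 CPM and SMPD3 from 12.9, 11.1 and 11.8 to 0.135, 0.455 and 0.188 CPM. Retinoid genes were 6 higher and 5 lower of 18 (median 0.29), with ALDH1A3 up 2.66-fold, STRA6 down 4.36-fold and RXRA down 2.18-fold, besides ALDH1A1.

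Mitochondrially encoded transcripts fell, 10 of 13 by the rule, and none rose by edgeR, DESeq2 or limma-voom (0 were higher at an unadjusted p below 0.05), with a median log2 fold change of -1.29. MT-CO2 went from 8514, 9194 and 8815 to 1673, 1942 and 3334 CPM, MT-CYB from 6487, 7313 and 6652 to 1272, 1381 and 2376 CPM and MT-CO3 from 6601, 7329.8 and 6778 to 2075, 2229 and 3204 CPM, and MT-ATP6, MT-ND2 and MT-ND4 were also among the 10 downregulated genes that lost most CPM. HaCaT_ctrl+cyto replicate 3 was the highest cytokine library for 9 of the 10. MT-ND4 (log2 fold change -1.08 ± 0.22) was not called without HaCaT_ctrl+cyto replicate 1 (-0.90) or 2 (-0.95). Nuclear-encoded respiratory chain subunits counted none higher and 10 lower of 74 (median -0.45; 3 were higher at an unadjusted p below 0.05, and none was called higher by DESeq2 or limma-voom), NDUFA5 from 103, 107 and 104 to 25.2, 24.98 and 28.2 CPM, ATP5MC2 from 121, 116 and 120.4 to 33.1, 37.6 and 40.0 CPM, and with library size alone 17 of them fell. Cytosolic ribosomal proteins were 6 lower and none higher of 77 (median -0.32; 5 were higher at an unadjusted p below 0.05, and none was called higher by DESeq2 or limma-voom), led by RPS28, from 295, 302 and 286 to 108, 100.1 and 109 CPM, with RPS27, RPL7A and RPL41 close to the 2-fold limit (RPL41 was not called without HaCaT_ctrl replicate 1 or HaCaT_ctrl+cyto replicate 3, at -0.97 and -0.90), and with library size alone 11 fell. The shares that fell, 13.5% of respiratory chain subunits and 7.79% of ribosomal proteins, were below the 21.1% of all tested genes. Ribosomal protein genes have many processed pseudogenes that can take their reads.

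Of 14 genes used as qPCR references, ACTB rose from 1442, 1299 and 1460.2 to 4000.2, 3529 and 4804 CPM, 2.94-fold, and SDHA fell from 182, 178 and 188 to 59.5, 57.8 and 55.9 CPM, 3.17-fold. GAPDH, at 1784, 1696 and 1823 CPM without and 1402, 1529.7 and 1854 CPM with cytokines, and GUSB, at 37.2, 33.1 and 36.4 CPM without and 39.2, 37.2 and 41.0 CPM with cytokines, were not called (log2 fold changes -0.15 ± 0.10 and 0.14 ± 0.08), and the sign for GUSB turned with library size alone (-0.07). ANXA2, from 2007, 1849 and 2013 to 4221, 4145 and 4749 CPM, completed the 10 largest gains and was under the 2-fold rule with library size alone (0.95).

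Of 1061 tested long noncoding genes, 143 (13.5%) rose and 431 (40.6%) fell, against 14.6% and 19.6% of 11971 protein-coding genes, a difference that was not tested. The filter limits these shares, because 934 genes of all types passed it only through the unstimulated libraries and 275 only through the cytokine ones. How these divide between the types was not counted. H19, an imprinted noncoding RNA, fell from 47.8, 45.4 and 43.3 to 0.0675, 0.0651 and 0.0626 CPM, 1 read per cytokine library, and LINC02518 from 36.3, 43.2 and 35.4 CPM to 2 reads in all. The gene named by its identifier ENSG00000266976 fell from 36.6, 39.3 and 33.8 CPM to 3 reads. WAKMAR2, a noncoding gene next to TNFAIP3, rose from 0.199, 0.118 and 0.273 to 50.8, 41.4 and 42.2 CPM, LINC01619 had 3 reads and then 5.54, 6.38 and 7.51 CPM, and ENSG00000260953 had none and then 7.76, 6.51 and 3.25 CPM. MMP12, whose identifier has a noncoding type in the gene table of the study, fell from 7.7, 9.4 and 7.2 CPM to no read. Strand use in counting is not given in the sources used here, so reads of a noncoding gene and an overlapping gene on the other strand may not be separate.

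**Figure D4:**
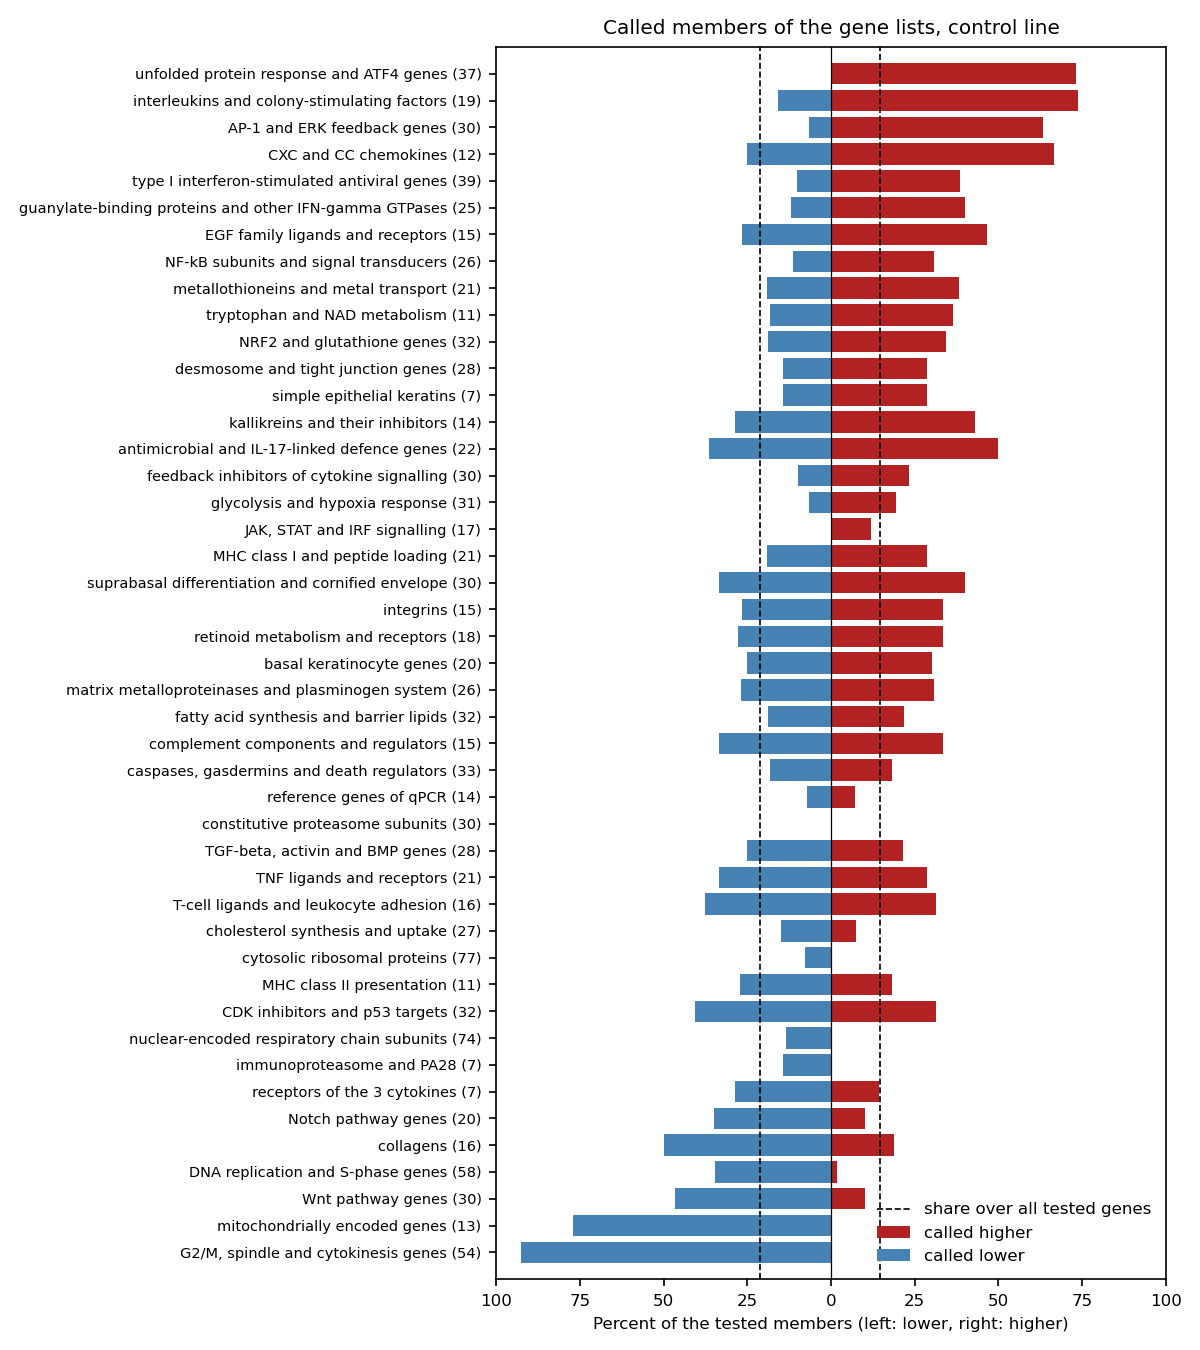
Percent of the tested members of each gene list (number tested in brackets) that were called higher (red, to the right) or lower (blue, to the left) in HaCaT_ctrl+cyto, with the shares over all tested genes (14.7% and 21.1%) as dashed lines, and lists sorted by the difference of both shares. Unfolded protein response and ATF4 genes, interleukins, AP-1 genes and chemokines stand at the top, G2/M and mitochondrially encoded genes at the bottom, and lists with under 7 tested genes or of cell type markers are not drawn.

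The control line's response was set beside that of HaCaT_sh, in which 2013 of 13480 tested genes rose and 2827 fell. Of 4543 genes called in the control line and tested in HaCaT_sh, 3747 were called the same way in both and 7 the opposite way. The difference of the responses, tested as an interaction over all 12 libraries, was called for 349 of 13296 genes (2.62%), 186 with a higher and 163 with a lower response in HaCaT_sh. Of the 248 that were also called in the control line, 179 had a larger change there. Picking genes by their call in that line favours a larger change in it, so this count does not compare the lines. IVL fell in both lines, from a mean of 470.4 to 5.15 CPM in HaCaT_ctrl and from 234 to 15.1 CPM in HaCaT_sh (log2 difference 2.58 ± 0.17 SE, adjusted p = 9.12e-07). S100A7 likewise went from 40.4 to 0.842 CPM in HaCaT_ctrl and from 15.4 to 5.09 CPM in HaCaT_sh. Opposite directions were seen for SPRR3, from 15.2 to 1.65 CPM in HaCaT_ctrl but from 2.33 to 7.02 CPM in HaCaT_sh (log2 difference 4.81 ± 0.27), and for CMYA5, a muscle-associated protein, from 9.92 to 4.8 and from 0.168 to 2.47 CPM, where the decrease of the control line (log2 fold change -1.05) was not called without HaCaT_ctrl+cyto replicate 3 (-0.98). BAMBI, a decoy receptor of TGFβ signalling, was not called in HaCaT_ctrl (12.5 and 14.8 CPM) and went from 2.32 to 15.2 CPM in HaCaT_sh.

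Responses that were larger in the control line include SERPINB3, which went from 16.05 to 234 CPM in HaCaT_ctrl and from 72.2 to 68.0 CPM in HaCaT_sh (log2 difference -3.94 ± 0.16, adjusted p = 3.48e-09). THBD (thrombomodulin) went from 63.3 to 450.4 and from 167 to 295 CPM, ITPRIP from 50.8 to 293 and from 60.4 to 149.7 CPM, and ASNS from 13.1 to 444 and from 42.3 to 309 CPM. CYP1B1, a cytochrome of xenobiotic metabolism, had the larger change in HaCaT_sh. It was not called in HaCaT_ctrl, from 154 to 84.2 CPM (called with library size alone, at a log2 fold change of -1.08), and went from 212 to 24.4 CPM in HaCaT_sh. IL1A rose from a mean of 0.547 to 58.7 CPM in HaCaT_ctrl and from 2.67 to 54.4 CPM in HaCaT_sh, and IL1B from 1.68 to 95.9 and from 8.56 to 85.7 CPM. On a log scale the means of the lines lay further apart without than with cytokines. This comparison between lines was not tested, and CPM were scaled within each line.

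**Figure D5:**
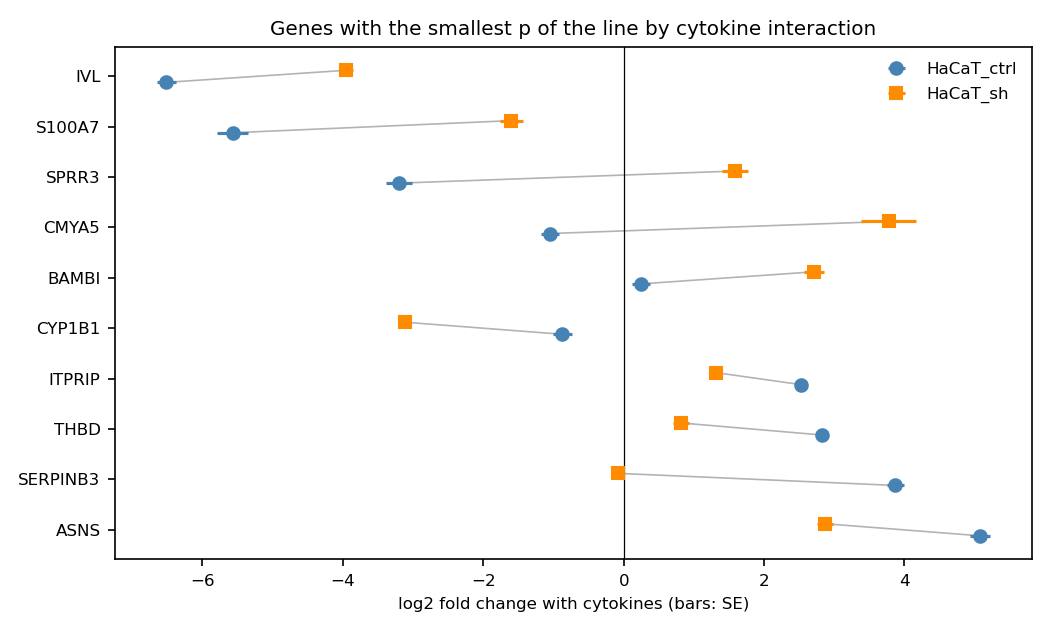
Log2 fold change with cytokines (horizontal axis, bars are SE) in HaCaT_ctrl (blue circles) and HaCaT_sh (orange squares) for 10 genes. These are, in each direction of the interaction, the 5 called genes with the smallest p, and not the 10 smallest of all. SPRR3 and CMYA5 are below 0 in HaCaT_ctrl and above it in HaCaT_sh, and SERPINB3 lies near 0 in HaCaT_sh only.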

How the data were processed

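RNA-seq was done on 12 libraries, 3 for each of HaCaT_ctrl, HaCaT_ctrl+cyto, HaCaT_sh and HaCaT_sh+cyto. The authors aligned the reads to the human genome hg19 (GRCh37) and deposited raw counts per gene. Counting program and strand setting: not given in the sources used here. A second deposited table of scaled values and columns with the authors' own comparisons were not used. Of 57370 genes 55010 were named from the Gencode annotation and 73 from the gene table of the study.

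Genes that reached 1 CPM in 3 or more of the 6 control-line libraries were tested with edgeR (version 4.0.16) by TMM scaling and quasi-likelihood F tests, and p-values were adjusted by Benjamini-Hochberg across these 13687 genes. A call needed an adjusted p below 0.01 and a 2-fold change. SE is the log2 fold change divided by the square root of F. Responses of both lines were compared by the interaction term over 12 libraries. The fit was also run on simulated counts with far fewer changed genes than in these data and the same spread in both groups. That run does not test the scaling used here. Alternatives used DESeq2 (version 1.42.0), limma-voom (limma version 3.58.1), other scalings and filters, a replicate block and leaving out each library.

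Members and gene lists were chosen with earlier results of these data known. Named were 228 genes: the 12 largest increases and decreases among protein-coding genes, the 10 largest gains and losses in CPM, up to 4 called genes per list by smallest p, the 4 largest long noncoding changes each way, the 5 smallest interaction p-values each way, cytokine receptors and reference genes. Another 49 were added after their values were seen. A few named genes are not reported here.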

Additional observations from a re-analysis of the deposited data

Results flagged for a closer look

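Of the 277 named genes, 43 had a response that differed between the lines by the edgeR interaction test (adjusted p below 0.01 and at least 2-fold), against 2.62% of all genes tested. Genes were named in part for this test, so the number is no result about them. Values in brackets are the log2 fold change in HaCaT_sh minus that in HaCaT_ctrl, and 28 were positive and 15 negative. Groups hold 3 libraries each, too few to look for single outlying libraries.

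Positive differences among S100, cornified envelope and antimicrobial genes were those of S100A7 (3.99), S100A8 (3.61), S100A9 (2.84), SPRR3 (4.81), IVL (2.58) and RNASE7 (1.35). Keratins and junction genes with a positive difference were KRT13 (1.23), KRT16 (2.39), KRT17 (1.88), KRT20 (3.13), KRT23 (1.70) and DSG4 (3.22). MHC class II and interferon-linked genes were HLA-DMA (1.14), HLA-DQA1 (4.25), HLA-DRA (2.04), IDO1 (1.19) and RSAD2 (1.26). Immune ligands were TNFSF10 (2.11) and VTCN1 (2.04). Matrix genes were COL1A1 (1.31), COL4A5 (1.07) and COL5A1 (2.74). Growth and signalling genes were BAMBI (2.49), ID3 (1.04) and LGR6 (1.67), and the others CMYA5 (4.84), HSPA8 (1.07) and SMPD3 (4.48).

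Negative differences were found for the cytokine and receptor genes IL1A (-2.34), IL1B (-2.47) and IL1RL1 (-1.79), for the defence genes SERPINB3 (-3.94), GBP6 (-1.05), C1S (-1.19) and CD55 (-1.17), for the mitotic genes CDK1 (-1.41) and IQGAP3 (-1.95), the latter being the gene that the shRNA of HaCaT_sh targets, and for ASNS (-2.20), ALDH3A1 (-1.05), CYP1B1 (-2.23), HBEGF (-1.47), ITPRIP (-1.20) and THBD (-2.00). IQGAP3 went from a mean of 75.0 to 3.42 CPM in HaCaT_ctrl and from 101.7 to 1.21 CPM in HaCaT_sh. Its mean in unstimulated HaCaT_sh was thus not below that of unstimulated HaCaT_ctrl. This comparison was not tested here, and CPM were scaled within each line. The paper reports a lower IQGAP3 mRNA level in HaCaT_sh than in HaCaT_ctrl by qPCR, and a knockdown by Western blot. It also states that qPCR changes of this gene were similar to those in RNA-seq.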

How the results depend on the processing

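The counts of 2017 higher and 2890 lower genes stayed within 1.5 times under every alternative except the test against a 2-fold change, with 1326 higher and 1945 lower. Library size alone gave 1509 and 3493. Leaving out 1 library gave 1956 to 2036 higher and 2828 to 2919 lower genes, and under no alternative did a called gene turn direction. The interaction count of 349 became 566 without a filter and 533 at an FDR of 0.05, and was 489 by edgeR's likelihood ratio test, 424 by DESeq2 and 316 by limma-voom. It ranged from 262 to 480 when 1 library was left out, the highest without HaCaT_ctrl+cyto replicate 1.

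Uncalled genes near 0 changed sign. With library size alone and upper quartile scaling, log2 fold changes were -0.075 and -0.047 for GUSB, -0.15 and -0.13 for IFNGR2 and -0.063 and -0.037 for KRT17. When 1 library was left out, IFNGR2 ranged from -0.0027 (without HaCaT_ctrl+cyto replicate 1) to 0.13, KRT17 from -0.095 (without the same library) to 0.39, and HLA-DRA from -0.19 to 0.14 (without the same library), with 0.076 without HaCaT_ctrl replicate 2. The causes were not tested. Deviations of same-numbered libraries had r = -0.0081, -0.07 and 0.08 over 9603 genes, which are not independent. Differently numbered libraries had r between -0.06 and 0.11. This does not settle whether the numbers pair libraries, which the labels do not state. A replicate block gave 2007 higher, 2892 lower and 352 interaction genes, and GBP4 was called lower (-1.01). Genes with few reads in 1 group have wide errors, and their fold changes depend on depth.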

Other observations

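Genes that the lists hold but that stayed under 1 CPM in at least 4 of the 6 libraries are given here as reads, without a test. TNF itself had 1, 0 and 0 reads in HaCaT_ctrl and 13, 8 and 5 in HaCaT_ctrl+cyto. IL17C, a ligand of the IL17RA and IL17RE receptor, had none in HaCaT_ctrl and 4, 0 and 1 with cytokines. S100A12 had 2, 2 and 3 reads and then 1, 0 and 0.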
